A study of Mus musculus with 6 samples.

Results

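The 10 receptor genes described here were followed in mouse CD4+ T cells and were taken by name, as chains of the receptors for interleukins 6, 10, 12, 17, 18, 27 and 33. All 10 were found among the 48440 genes of the deposited count table, and all 10 passed the filter on low counts that left 13314 genes for testing. Primary CD4+ T cells, the helper lymphocytes of the immune system, came from wild-type mice (spleen and lymph nodes) and were grown for 3 days on plates coated with antibodies to CD3 and CD28, followed by 5 days in interleukin 2. The stimulated group (3 libraries) then received the same antibodies again for 4 hours, and the unstimulated group (3 libraries) was left at rest, so both groups had been activated before and neither is naive. Strain, sex and age are not given in the labels, nor whether the replicates came from separate mice. All p-values are therefore limited to the variation among the 6 libraries, and that variation may be technical. The libraries held 29897720 to 30252923 counted reads, and 3 reads corresponded to 0.0992 to 0.1 CPM (counts per 1000000 reads).

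Interleukin receptors of these kinds have no enzyme activity of their own. Those for interleukins 6, 10, 12 and 27 are pairs of chains that work through Janus kinases and STAT factors, whereas the receptors for interleukins 18 and 33 use a TIR domain and the adaptor MyD88, and the interleukin 17 receptor uses the adaptor Act1. Chains are shared between receptors. The chain encoded by Il6st, gp130, serves the receptors for both interleukin 6 and interleukin 27, and the chain from Il12rb1 serves those for interleukins 12 and 23. In helper T cells, interleukins 12 and 18 are known for promoting interferon gamma production, interleukin 6 for the Th17 and follicular fates, interleukins 10 and 27 for restraint, and interleukin 33 for Th2 and regulatory T cells.

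The coding sequences of 4 chains, Il6ra, Il6st, Il12rb1 and Il12rb2, held 1 stretch each for tryptophan, serine, any residue, tryptophan, serine (WSXWS), the signature box of class I cytokine receptors. They are shown because the 4 chains that share this box did not share a response. The letters are from GENCODE M21 transcripts, 5′ to 3′ on the coding strand, with the 5 codons of the box in capitals.
Il6ra: ggccagTGGAGCGAATGGTCCccagag
Il6st: ggctacTGGAGTGACTGGAGTgaggag
Il12rb1: ggtcccTGGAGTGATTGGAGCatgcct
Il12rb2: ggaagtTGGAGTAATTGGAGTgagtca

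RefSeq promoter windows of 300 bases around a start site were found for 6 of the 10 chains. Printed are those of Il18r1 and Il18rap, neighbouring genes that fell together, and of Il12rb2 and Il6ra, which moved in opposite directions. Where a gene had several windows, the one with most GENCODE start sites nearby was taken. Capitals mark a STAT site (TTCNNNGAA), an NFAT core (GGAAA), an AP-1 site (TGANTCA) or an NF-kB site, searched on both strands, and no matches overlapped in these windows. The build is GRCm38.p6, with windows at chr1:40465756-40466055 and chr1:40515112-40515411 on the plus strand and at chr6:67376139-67376438 and chr3:89913147-89913446 on the minus strand, in the order shown.
Il18r1: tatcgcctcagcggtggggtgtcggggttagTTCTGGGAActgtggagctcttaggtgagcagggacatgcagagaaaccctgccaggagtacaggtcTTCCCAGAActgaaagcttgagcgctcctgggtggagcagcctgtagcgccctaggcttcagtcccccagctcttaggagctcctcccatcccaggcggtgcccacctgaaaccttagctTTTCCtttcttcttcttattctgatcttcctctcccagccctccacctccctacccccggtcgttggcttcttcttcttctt
Il18rap: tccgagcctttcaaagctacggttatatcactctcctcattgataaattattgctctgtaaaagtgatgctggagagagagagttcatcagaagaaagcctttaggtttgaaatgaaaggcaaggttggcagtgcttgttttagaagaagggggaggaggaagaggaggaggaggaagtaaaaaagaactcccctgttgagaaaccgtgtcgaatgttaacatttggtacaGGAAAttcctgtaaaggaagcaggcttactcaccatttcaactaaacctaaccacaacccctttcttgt
Il12rb2: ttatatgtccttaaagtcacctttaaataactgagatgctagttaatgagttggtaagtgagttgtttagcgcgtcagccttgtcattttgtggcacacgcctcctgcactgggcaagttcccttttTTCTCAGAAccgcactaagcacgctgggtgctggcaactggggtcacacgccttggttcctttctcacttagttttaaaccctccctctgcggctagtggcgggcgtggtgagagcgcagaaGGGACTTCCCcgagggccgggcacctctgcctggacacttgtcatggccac
Il6ra: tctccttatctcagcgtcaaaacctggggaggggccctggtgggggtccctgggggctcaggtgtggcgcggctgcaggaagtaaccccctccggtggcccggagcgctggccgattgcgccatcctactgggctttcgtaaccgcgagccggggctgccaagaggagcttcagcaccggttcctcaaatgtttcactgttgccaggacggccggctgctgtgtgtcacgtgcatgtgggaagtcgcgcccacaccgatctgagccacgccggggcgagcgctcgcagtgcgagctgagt
The printed window of Il18r1 held 2 STAT sites and 1 NFAT core, that of Il18rap 1 NFAT core, and that of Il12rb2 1 STAT site and 1 NF-kB site. None of these letters occurred in the window of Il6ra. Il18r1 had 3 windows, and the others, starting at 40465302 and 40465371, held 0 STAT sites and 1 NFAT core each. Of all 32851 windows of this length, 8.3% held a STAT site, 61.3% an NFAT core, 7.81% an AP-1 site and 8.46% an NF-kB site. A match describes the letters and does not show a bound site.

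Of the 10 chains, 3 were higher after stimulation (Il12rb1, Il12rb2 and Il10ra), 4 were lower (Il6ra, Il17ra, Il18r1 and Il18rap) and 3 did not pass the test (Il6st, Il27ra and Il1rl1). The test was edgeR's quasi-likelihood test on the counts with Benjamini-Hochberg adjustment over all genes tested and a threshold of 0.05. The stimulus moved most genes, with 77.5% called, 38.4% as rises and 39.1% as falls, so that 7 of 10 is close to the background. For 7 chains every stimulated library was above, or every one below, all unstimulated libraries, as for 79.8% of all genes. The median log2 fold change of the chains was 0.058, and its median size without sign was 1.33, beside -0.043 and 0.897 over all genes tested. Counts of this kind measure shares of a library, and in bulk samples fewer cells that carry a transcript and less of it per cell cannot be told apart.

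**Figure D1:**
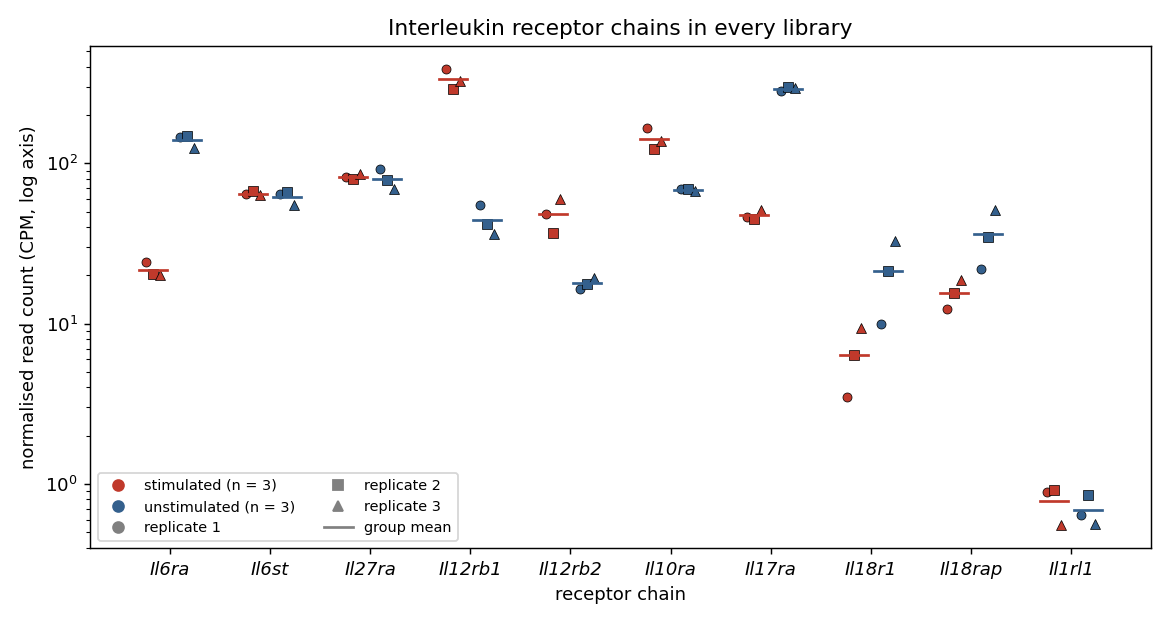
Normalised read count (CPM, log axis) of each receptor chain in the 3 stimulated libraries (red) and the 3 unstimulated libraries (blue), with lines at the group means and symbols for the replicate numbers. Il12rb1 stood highest among the stimulated libraries, at 292 to 389.6 CPM, and Il17ra among the unstimulated ones, at 281 to 299 CPM.

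Il6ra (ENSMUSG00000027947, chromosome 3, 89864059 to 89913196 in GRCm38, minus strand) encodes the interleukin 6 binding chain. It was at 24.1, 20.3 and 20.3 CPM in stimulated replicates 1, 2 and 3, against 147, 148 and 124.5 CPM in the unstimulated ones. Every stimulated library lay below every unstimulated one, and the spread within each group was small beside the gap. Il6ra fell 6.50-fold (edgeR, adjusted p = 3.4e-08; log2 fold change -2.70, SE 0.10). Of all genes tested, 4.63% had a lower log2 fold change. An antisense gene, Gm42809, shares 242 exon bases with it and held 4 to 9 reads per stimulated library and 16 in each unstimulated one, beside 578 to 680 reads of Il6ra per stimulated library and 3962 to 4693 per unstimulated one.

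Its signalling partner gp130 did not pass the test. Il6st (ENSMUSG00000021756, chromosome 13, 112464070 to 112510086, plus strand) was at 64.0, 66.9 and 63.2 CPM in stimulated libraries, against 64.2, 66.8 and 54.8 CPM in unstimulated ones. The groups overlapped, and the log2 fold change was 0.064 (SE 0.084; edgeR, adjusted p = 0.504). The sign depended on the scaling and on 1 library: with library size alone it was -0.075, and without unstimulated replicate 3 it was -0.029.

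Il27ra (ENSMUSG00000005465, chromosome 8, 84030294 to 84042589, minus strand), the interleukin 27 binding chain that pairs with gp130, was also close between groups. It was at 82.6, 79.4 and 86.1 CPM in stimulated libraries, against 92.1, 78.4 and 68.9 CPM in unstimulated ones, where the values were wider and enclosed those of the stimulated group. The log2 fold change was 0.051 (SE 0.10; edgeR, adjusted p = 0.661), and it was -0.087 with library size alone and -0.057 without unstimulated replicate 3. Il6st and Il27ra thus gave small differences of unsettled sign, which does not show that they were unaffected.

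**Figure D2:**
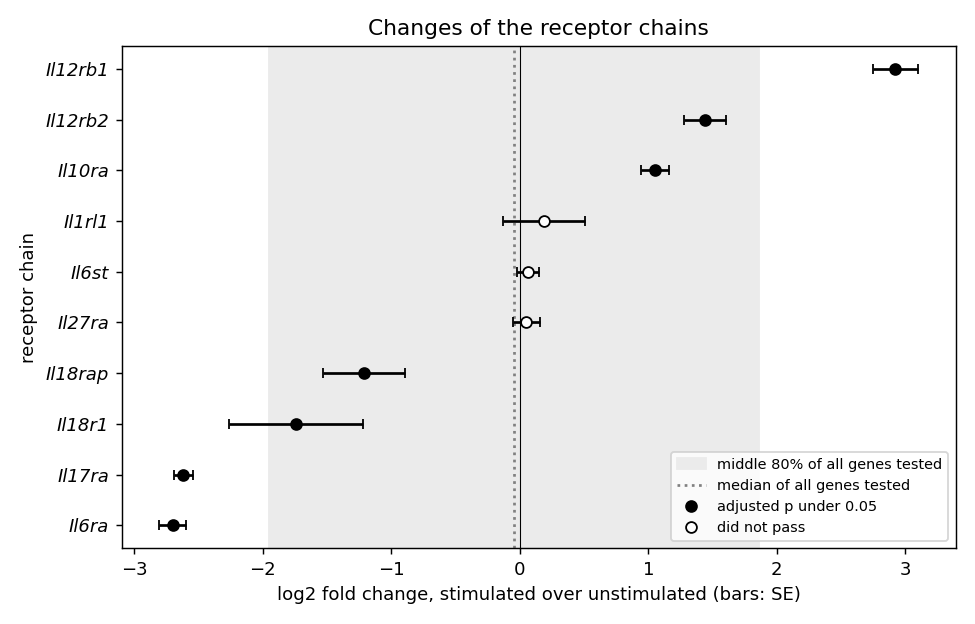
Log2 fold change of each chain, stimulated over unstimulated, with bars of 1 SE; filled points passed the test. The shaded band runs from -1.95 to 1.86, with 10% of all 13314 genes below it and 10% above it. Il12rb1 lies above it, Il17ra and Il6ra lie below it, and the open points of Il1rl1, Il6st and Il27ra lie near 0.

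Il12rb1 (ENSMUSG00000000791, chromosome 8, 70808449 to 70821424, plus strand) encodes the chain common to the receptors for interleukins 12 and 23. It was at 389.6, 292 and 327 CPM in stimulated libraries, against 55.0, 42.1 and 36.2 CPM in unstimulated ones. No stimulated library came near an unstimulated one. Il12rb1 rose 7.57-fold (log2 fold change 2.92, SE 0.18; edgeR, adjusted p = 1.5e-06), and 96.0% of all genes tested had a lower log2 fold change.

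Il12rb2 (ENSMUSG00000018341, chromosome 6, 67291318 to 67376188, minus strand), the chain that makes the receptor specific for interleukin 12 and recruits STAT4, was at 48.6, 36.9 and 59.6 CPM in stimulated libraries, against 16.6, 17.7 and 19.2 CPM in unstimulated ones. The groups were separate, with a wider spread among the stimulated libraries. The rise was 2.71-fold (log2 fold change 1.44, SE 0.16; edgeR, adjusted p = 5.5e-05). The exons of Il12rb2 share 1519 of 3794 bases with those of Serbp1, an abundant gene on the opposite strand, and reads of the shared stretch cannot be assigned without a strand setting, which is not given in the sources used here. Serbp1 was at 1484, 1445 and 1443 CPM in stimulated libraries, against 525, 508 and 504 CPM in unstimulated ones, a 2.84-fold rise of similar size, so the level and the rise of Il12rb2 are uncertain. The part of Serbp1 reads in the Il12rb2 counts was not tested.

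Il10ra (ENSMUSG00000032089, chromosome 9, 45253837 to 45269149, minus strand) encodes the interleukin 10 binding chain. It was at 166, 122 and 137 CPM in stimulated libraries, against 69.3, 69.2 and 67.1 CPM in unstimulated ones, where the libraries agreed closely. Il10ra rose 2.07-fold (log2 fold change 1.05, SE 0.11; edgeR, adjusted p = 1.8e-05), a change close to the middle of the range, since 56.1% of all genes had a smaller change in either direction.

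Il17ra (ENSMUSG00000002897, chromosome 6, 120463247 to 120487559, plus strand) encodes the chain common to the receptors of the interleukin 17 family. It was at 46.5, 45.1 and 50.9 CPM in stimulated libraries, against 281, 299 and 295 CPM in unstimulated ones. Both groups were tight and far apart. Il17ra fell 6.14-fold (log2 fold change -2.62, SE 0.074; edgeR, adjusted p = 8.2e-09), with the smallest p among the 10 chains.

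The remaining 3 chains lie side by side on the plus strand of chromosome 1, within 122.1 kb. Il1rl1 (ENSMUSG00000026069, 40429570 to 40465415) encodes ST2, the interleukin 33 binding chain. Il18r1 (ENSMUSG00000026070, 40465552 to 40500854), which encodes the interleukin 18 binding chain, starts 136 bases after it, and Il18rap (ENSMUSG00000026068, 40515362 to 40551705), its signalling partner, follows after 14.5 kb.

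Both interleukin 18 receptor chains fell, and both differed widely between replicates of the same group. Il18r1 was at 3.47, 6.39 and 9.34 CPM in stimulated replicates 1, 2 and 3, against 9.99, 21.4 and 32.8 CPM in the unstimulated ones. The highest stimulated library was only just below the lowest unstimulated one. Il18rap was at 12.4, 15.6 and 18.8 CPM in stimulated libraries, against 21.8, 34.8 and 51.5 CPM in unstimulated ones. In each group and for each gene, replicate 1 was lowest and replicate 3 highest.

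Among the 11586 genes with a mean of at least 1 CPM, 99.4% had a smaller SD of log2 CPM than Il18r1 over the stimulated libraries and 99.5% over the unstimulated ones. For Il18rap these shares were 91.6% over the stimulated and 98.4% over the unstimulated libraries. The log2 ratio of stimulated over unstimulated Il18r1 was -1.52, -1.75 and -1.81 in replicates 1, 2 and 3, and that of Il18rap was -0.82, -1.16 and -1.45.

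Without regard to the numbers, Il18r1 fell 3.34-fold (log2 fold change -1.74, SE 0.52; edgeR, adjusted p = 0.021) and Il18rap 2.31-fold (log2 fold change -1.21, SE 0.32; edgeR, adjusted p = 0.0109). In fits that leave out the replicate number, the call of Il18r1 depended on single libraries. Its adjusted p in edgeR was 0.0726 without stimulated replicate 1, 0.0618 without stimulated replicate 2 and 0.070 without unstimulated replicate 3. With no filter it was 0.0901, the highest of all alternatives. The lowest, 1.4e-08, came from the edgeR fit with the replicate number as a block. Il18rap kept its call without any 1 library, though only just without stimulated replicate 1 (edgeR, adjusted p = 0.0498). It lost the call with no filter, where the adjusted p in edgeR was 0.0662, the highest of its alternatives (lowest 4.6e-06, with the block).

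**Figure D3:**
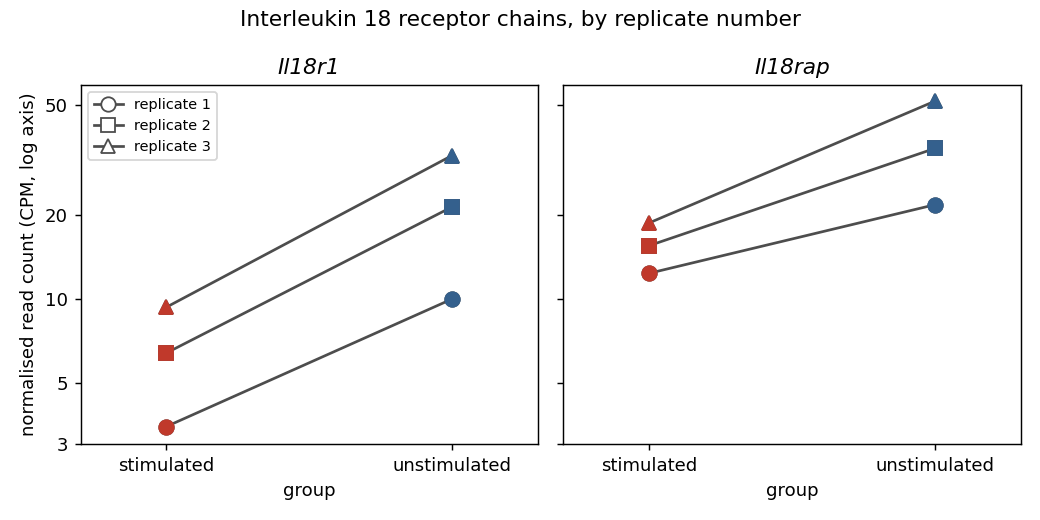
Normalised read count (CPM, log axis) of Il18r1 and Il18rap in each library, with lines joining stimulated and unstimulated libraries of the same replicate number. All 6 lines run upward to the unstimulated library, and replicate 1 is lowest and replicate 3 highest at both ends.

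Il1rl1 was close to the detection limit. It had 25, 26 and 16 reads in stimulated libraries, against 20, 27 and 18 reads in unstimulated ones, or 0.783 ± 0.201 CPM in stimulated and 0.685 ± 0.150 CPM in unstimulated cells (SD, n = 3 each). The groups overlapped fully, with a log2 fold change of 0.19 (SE 0.32; edgeR, adjusted p = 0.596), so that a change was not detectable at this depth. Membrane-bound and soluble forms of ST2 or of the interleukin 6 receptor are not separated by counts per gene.

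The balance of paired chains was followed as the ratio of their reads per kilobase of merged exons within a library, which does not depend on the scaling between libraries. Il6ra was at 0.484, 0.3895 and 0.412 times the level of Il6st in stimulated libraries, against 2.94, 2.85 and 2.92 times in unstimulated ones. The interleukin 6 binding chain was thus the more abundant of the pair at rest and the less abundant after stimulation (difference of the log2 ratio -2.77, SE 0.094). Il27ra over Il6st was at 4.10, 3.77 and 4.33 in stimulated libraries, against 4.56, 3.73 and 3.99 in unstimulated ones, and the groups overlapped (difference -0.0075, SE 0.10).

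Il12rb2 over Il12rb1 was at 0.135, 0.137 and 0.197 in stimulated libraries, against 0.326, 0.455 and 0.575 in unstimulated ones. Both chains rose, and Il12rb1 lay further above its partner in stimulated than in unstimulated libraries (difference of the log2 ratio -1.52, SE 0.30), with the limit from Serbp1 given above. Il18rap over Il18r1 was at 2.53, 1.73 and 1.43 in stimulated libraries, against 1.56, 1.16 and 1.12 in unstimulated ones, and was higher in the stimulated library of each replicate number, although the groups overlapped (difference 0.55, SE 0.28). In exact two-sided permutation tests over the libraries, p was 0.1 for Il6ra over Il6st and for Il12rb2 over Il12rb1, which is the smallest that 3 against 3 libraries allow, 0.2 for Il18rap over Il18r1 and 1 for Il27ra over Il6st. Adjusted over the 4 ratios these became 0.2, 0.2, 0.267 and 1, so that none could pass.

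**Figure D4:**
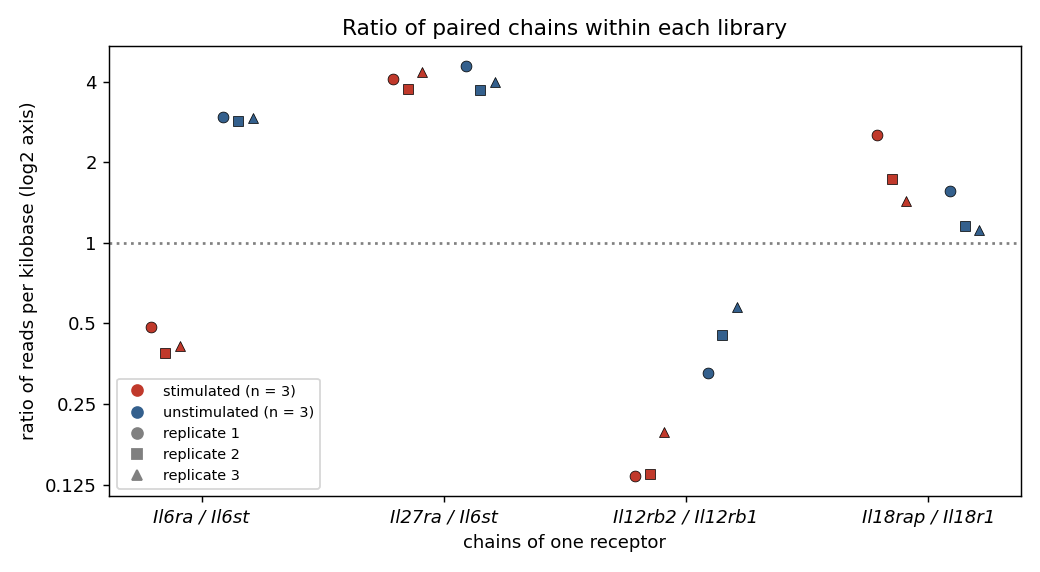
Ratio of reads per kilobase of the chains of one receptor in each library (log2 axis; dotted line at equal levels), stimulated in red and unstimulated in blue. Il6ra over Il6st lies below 1 in all 3 stimulated libraries and above 1 in all 3 unstimulated ones, while Il27ra over Il6st stays near 4 in both groups.

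Levels of different chains can be set side by side only per length, here as CPM per kilobase of merged exons (RPKM; mean and SD, n = 3). In stimulated cells the order began with Il12rb1 (81.9 ± 12.0 RPKM), Il10ra (40.6 ± 6.42), Il27ra (23.7 ± 0.958) and Il12rb2 (12.7 ± 2.98), each with all libraries above those of the next. The place of Il12rb2 in both groups carries the limit from Serbp1 given above. It went on with Il6st (5.83 ± 0.177) and Il17ra (5.48 ± 0.353), which overlapped, and then Il6ra (2.49 ± 0.256), Il18rap (2.31 ± 0.475) and Il18r1 (1.33 ± 0.609), of which neighbours overlapped. Il1rl1 was last in both groups, at 0.114 ± 0.0292 RPKM in stimulated and 0.0994 ± 0.0217 RPKM in unstimulated cells.

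In unstimulated cells Il17ra stood first (33.7 ± 1.07 RPKM), before Il27ra (22.8 ± 3.35) and Il10ra (19.6 ± 0.358), which overlapped, and then Il6ra (16.2 ± 1.55) and Il12rb1 (10.8 ± 2.34). Il6st (5.58 ± 0.568), Il18rap (5.34 ± 2.20), Il12rb2 (4.70 ± 0.352) and Il18r1 (4.44 ± 2.37) followed without a gap between neighbours. Il17ra and Il6ra thus ranked 6 and 7 of 10 after stimulation, against 1 and 4 at rest. Il12rb1 ranked 1 after stimulation, against 5 at rest. With the longest transcript as length, Il6ra ranked 8 after stimulation.

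**Figure D5:**
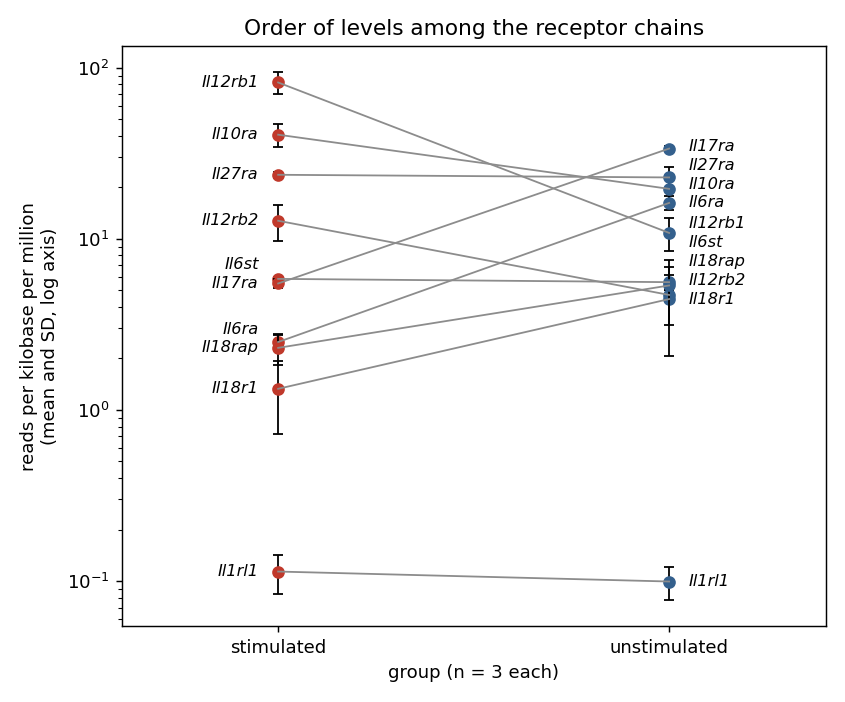
RPKM (CPM per kilobase of merged exons) of each chain (mean and SD over 3 libraries, log axis) in stimulated cells (left) and unstimulated cells (right), with a line for each chain. The lines of Il12rb1, Il17ra and Il6ra each cross several others, and Il27ra, Il6st and Il1rl1 run nearly level.

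The other genes of these pathways were described by lists. Of 7 partner chains outside the 10, only 3 had enough reads for the test. Il1rap, the accessory chain that ST2 needs, rose 4.64-fold (47.1 ± 7.60 CPM in stimulated and 10.2 ± 0.817 CPM in unstimulated cells; edgeR, adjusted p = 3.6e-07). Il10rb, the second chain of the interleukin 10 receptor, fell 1.42-fold (25.8 ± 0.451 CPM in stimulated and 36.5 ± 1.43 CPM in unstimulated cells; edgeR, adjusted p = 0.00015), opposite to Il10ra. Il11ra1, another partner of gp130, fell 3.46-fold (1.61 ± 0.228 CPM in stimulated and 5.58 ± 0.833 CPM in unstimulated cells; edgeR, adjusted p = 2.6e-05).

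Of the 11 ligand genes, 7 were tested, 6 rose and none fell, while 38.4% of all genes tested rose. Ligand genes with almost no reads at rest, such as Il17f and Il33, passed the filter through their stimulated libraries. A fall could not be called for them, so the count of rises is no result about the ligands as a set. Il17f, whose product signals through Il17ra, had 91, 64 and 53 reads in stimulated libraries, against 2, 2 and 4 in unstimulated ones. Il33 had 28, 43 and 26 reads in stimulated libraries, against 0, 0 and 2 in unstimulated ones. Il18 had 54, 63 and 41 reads in stimulated libraries, against 15, 14 and 10 in unstimulated ones. All 3 were low in number but separate between groups. Ebi3, a subunit of interleukins 27 and 35, was at 30.5 ± 9.07 CPM in stimulated and 25.4 ± 6.06 CPM in unstimulated cells (edgeR, adjusted p = 0.346), and passed with the replicate number as a block (edgeR, adjusted p = 0.0094).

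Among 6 kinases and STAT factors used by these receptors, 3 rose, or 2 with no filter, and 2 fell. Over all genes tested, 38.4% rose and 39.1% fell. Jak2, the kinase bound to the chain from Il12rb2, rose 5.31-fold and Stat3 1.46-fold. Stat4, which carries the interleukin 12 signal, fell 9.19-fold and Jak1, which serves gp130, 3.16-fold. Of 6 adaptors 4 rose and 2 fell, against 2 and 2 with library size alone, a scaling that moved the median of all genes by -0.14 on the log2 scale. The rises were 3 with no filter, with 1 CPM in 3 libraries and at an adjusted p of 0.01. They were also 3 without stimulated replicate 1 or 3 and without unstimulated replicate 2 or 3. Ptpn11 (SHP2) rose 1.57-fold and Traf6 1.33-fold, and Irak1 was 1.23-fold higher, a call lost with library size alone (edgeR, adjusted p = 0.0897). Traf3ip2, which encodes Act1, fell 1.65-fold and Irak4 1.44-fold.

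Of 6 inhibitors and sheddases 2 rose and 2 fell, while 38.4% of all genes tested rose and 39.1% fell. Socs1 rose 6.97-fold, and Il18bp, the secreted decoy for interleukin 18, rose 3.67-fold (11.3 ± 1.69 CPM in stimulated and 3.09 ± 0.173 CPM in unstimulated cells). Socs3, which binds gp130, fell 1.39-fold, and the sheddase Adam10 fell 1.30-fold. Of 4 neighbours in the chromosome 1 cluster, Il1r2, a decoy receptor for interleukin 1, rose 6.81-fold, or 10.7-fold without unstimulated replicate 1, and Il1rl2, an interleukin 36 receptor chain, fell 4.03-fold. The other two were not tested. The cluster therefore held Il1r2, which rose, genes that fell and Il1rl1, which did not pass.

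All 6 helper lineage factors listed rose, while 38.4% of all genes tested rose. The list was chosen with earlier results of these data known, so this count is no result about the factors as a set. The count also depended on the setting. It was 3 of 6 at an adjusted p of 0.01, where Gata3, Bcl6 and Eomes were lost, and 5 of 6 with the replicate number as a block. It was 4 of 6 with library size alone, with no filter, and without stimulated replicate 1, unstimulated replicate 2 or unstimulated replicate 3. Tbx21, the Th1 factor, rose 5.68-fold and Foxp3, the regulatory T cell factor, 1.39-fold. The genes of these lists given with a fold change had adjusted p from 1.0e-08 (Stat4) to 0.00867 (Irak1) in edgeR's quasi-likelihood test. In the same test the adjusted p was 0.015 for Gata3, 0.0215 for Eomes and 0.0454 for Bcl6.

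Markers of other cell types were read in the same libraries. The 5 CD4+ T cell markers summed to 1561 to 1607 CPM in stimulated and 3395 to 3558 CPM in unstimulated libraries, and all 5 were detected in every library and fell. The 5 B cell markers summed to 28.4 to 29.2 CPM in stimulated and 66.7 to 69.1 CPM in unstimulated libraries, and 4 of them fell. The B cell sum thus moved in the direction of the 4 chains that fell. So did the CD4+ T cell and macrophage sums, and 39.1% of all genes tested fell. The pair of CD8+ markers summed to 20.7 to 25.8 CPM in stimulated and 20.9 to 24.8 CPM in unstimulated libraries, a sum in which Cd8a rose 2.15-fold and Cd8b1 fell 1.26-fold (edgeR, adjusted p = 5.3e-05 and 0.0358). The call of Cd8b1 was lost with DESeq2 (adjusted p = 0.0636) and in edgeR without stimulated replicate 2 or 3 or unstimulated replicate 2 (adjusted p = 0.113, 0.131 and 0.136). The 6 macrophage markers summed to 3.00 to 3.68 CPM in stimulated and 6.38 to 8.27 CPM in unstimulated libraries.

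The 5 markers of mast cells and basophils, which also carry ST2, summed to 1.49 to 2.14 CPM in stimulated and 1.05 to 1.44 CPM in unstimulated libraries, with Mcpt8 at 0. Members of this list moved in opposite directions: Cpa3 fell 2.95-fold (edgeR, adjusted p = 0.0028), Kit rose 4.69-fold (edgeR, adjusted p = 0.0191), and the other markers had at most 1 read in any library. The call of Kit was lost with no filter and without stimulated replicate 2 or 3 (edgeR, adjusted p = 0.0621, 0.0552 and 0.0547). The 5 dendritic cell markers summed to 4.22 to 5.72 CPM in stimulated and 1.19 to 2.00 CPM in unstimulated libraries, with Siglech and Clec9a at 0. They too moved in opposite directions. Zbtb46 rose 8.21-fold and Xcr1 2.38-fold, while Flt3 fell 2.17-fold (edgeR, adjusted p = 2.1e-05, 0.0235 and 0.0258). Without stimulated replicate 3, among other settings, the calls of Xcr1 and Flt3 were lost (edgeR, adjusted p = 0.108 and 0.0884). Neutrophil and NK cell markers stayed at or below 0.221 CPM in every library. The part of these cells in the levels of the receptor chains was not tested.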

How the data were processed

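RNA sequencing of 6 libraries was used, as 1 table of raw counts of reads per Ensembl gene that the authors deposited, with 1 column per library. HTSeq, STAR 2.5.2a and DESeq2, with the build GRCm38, are named per the submitters' processing notes, without role or order. The annotation release and the strand setting are not stated there or in the labels. Per the labels' protocols, RNA came from a column kit and a TruSeq RNA preparation.

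Gene names, coordinates and exon lengths came from GENCODE M21, which matched 48058 of 48440 identifiers. edgeR 4.0.16 (R 4.3.3) was run with TMM, filterByExpr, robust dispersions and the quasi-likelihood test, two-sided, group as the only term. The SE came from the change and its F statistic, and CPM from TMM-scaled library sizes. In simulated data of 13314 genes, 72% of 100 genes changed 1.5-fold and 92% of 100 changed 2-fold were recovered, with 10 false calls. Only 200 genes were changed there, the spread followed the trend over genes of similar level, and no replicate effect was put in. The figures therefore need not hold for these data, where most genes were called, or for variable genes such as Il18r1. No pair of libraries in a group agreed within counting noise (dispersion index 9.41 to 37.6, where noise gives about 1). Chain ratios had 0.5 added to each count.

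Replicate numbers come from the labels, which do not say what they mark. Deviations from group means over 11586 genes correlated at 0.49, 0.17 and 0.53 for the same numbers, and at -0.49 to -0.0097 for different ones. Libraries of the same number were thus more alike, least so for replicate 2. Deviations within a group cancel out, so the negative values add no separate evidence. Whether the numbers mark a shared source cannot be told. Alternatives tried were the scalings RLE and library size alone, no filter, 1 CPM in 3 libraries, DESeq2 1.42.0, limma-voom (limma 3.58.1), the replicate block, each library left out, an adjusted p of 0.01, other prior counts, and the longest transcript as length. The receptor chains and lists were chosen with earlier results of these data known. All 10 chains were named, and of each list up to 3 genes in each direction with the smallest p, except for genes not reported here. Python 3.11.15, pandas 2.3.3, numpy 2.4.6, scipy 1.17.1 and matplotlib 3.10.9 were used.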

Additional observations from a re-analysis of the deposited data

How the results depend on the processing

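The 3 rises and the falls of Il6ra and Il17ra kept their direction and their call under all alternatives run. None of these alternatives dealt with the overlap of Il12rb2 and Serbp1, so the rise of Il12rb2 stays uncertain. The count of chains that fell was 2 in place of 4 with no filter, where the calls of Il18r1 and Il18rap were lost and the cause was not tested. It was also 2 at an adjusted p of 0.01, since their adjusted p in the main edgeR fit, 0.021 and 0.0109, lie above that threshold. Leaving out 1 library gave 6 to 7 chains called and 9802 to 10436 genes called. The sign of Il6st turned with library size alone (-0.0754) and without unstimulated replicate 3 (-0.0294; -0.0294 to 0.114 over all left-out libraries), as did that of Il27ra (-0.0865 and -0.0569; -0.0569 to 0.169), and neither passed in any alternative. With the replicate block 7 chains and 10842 genes were called, in place of 7 and 10320, and no call among the chains changed. The SE of Il18r1 was 0.10 with the block, in place of 0.52 (log2 fold change -1.71; edgeR, adjusted p = 1.4e-08), and that of Il18rap 0.11, in place of 0.32 (-1.16; adjusted p = 4.6e-06). The chain ratios changed by less than the SD between replicates with other prior counts, and paired by number they reached an exact permutation p of 0.25, the smallest that 3 pairs allow, other than Il27ra over Il6st with a p of 1. Left-out libraries moved them to between -2.86 and -2.70 for Il6ra over Il6st, -1.73 and -1.32 for Il12rb2 over Il12rb1, 0.32 and 0.73 for Il18rap over Il18r1 and -0.072 and 0.073 for Il27ra over Il6st. With the longest transcript as length, 8 of 10 ranks were kept in each group. Il1rl1, with 16 to 27 reads per library, was dropped by the filter of 1 CPM, and depth limits what its test can show.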

Other observations

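Partner chains with too few reads for the test were read as counts. Il17rc, the partner of Il17ra in the receptor for interleukin 17A, had 2, 4 and 4 reads in stimulated libraries and 0 in all 3 unstimulated ones. Il23r, which pairs with the chain from Il12rb1, had 0, 0 and 3 reads in stimulated libraries and 0, 0 and 3 in unstimulated ones. Of the gp130 partners, Lifr had 1, 2 and 2 reads in stimulated libraries, against 31, 8 and 8 in unstimulated ones, and Osmr had 3, 0 and 1 reads in stimulated libraries, against 1, 0 and 0 in unstimulated ones. The ligand subunits Il12a, Il12b, Il23a and Il27 had at most 23 reads in any library.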
